A study of Mus musculus with 12 samples.

Results

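RNA of N18 cells, a mouse neuroblastoma line, was set against RNA of BV2 cells, a mouse microglial line, over all genes with a symbol. The comparison used 8 of the 12 arrays of the series, 4 labelled N18 and 4 labelled BV2, each hybridised with RNA of a separately grown plate. Both lines were untreated and grew under the same conditions, in DMEM with 10% fetal bovine serum and antibiotics, and the methods describe the BV2 culture as one that keeps the cells resting. N18 cells descend from a mouse neuroblastoma, a tumor of the sympathetic lineage, and BV2 cells were made from mouse microglia with a virus that carries oncogenes, v-myc among them. Each group is a single established line, so a difference can belong to the cell type, to the line or to growth in culture, and these cannot be told apart. Of 25631 targets on the array, 17780 matched a gene symbol, which left 17277 genes, each given as the average of its probes. The genes of G protein-coupled receptors and of their signaling are not described here, other than those that mark a line.

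Microglia are the macrophages of the brain. The receptor Csf1r keeps them alive, and the factor PU.1 (gene Spi1) sets their gene program. They survey tissue with receptors that bind microbial products, antibodies and lipids, some signaling through the ITAM adaptors Tyrobp and Fcer1g and the kinase Syk. When these receptors are engaged, macrophages make cytokines and prostaglandins, and interferon then turns on a set of antiviral genes. Neuroblastoma arises from sympathetic neuroblasts, which are set by factors such as Hand2, Isl1 and Gata3, grow axons with tubulins, stathmins and peripherin, store catecholamines in granules that hold chromogranins, and respond to growth factors through receptors such as Ret. Tumors of this kind often carry extra activity of a Myc gene.

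The values are log2 intensities, normalized so that the 8 arrays share one distribution, and a difference of 1 is a doubling. Each difference is N18 against BV2 and comes from limma with 4 arrays per line. A gene was called at a Benjamini-Hochberg adjusted p under 0.05, and p-values reflect the spread between plates of 1 line. So many genes passed, 11332 of 17277 (65.6%), with 30.5% of all genes called higher in N18 and 35.1% in BV2, that a second call is used for counts below: called, with a log2 difference of at least 1. By it, 1488 genes (8.61%) were higher in N18 and 1146 genes (6.63%) were higher in BV2. The arrays of the lines did not overlap for 2633 of these 2634. The median SD over arrays was 0.13 in BV2 and 0.1 in N18, so this selection leaves little room for overlap. Of all genes, 10001 (57.9%) were called without overlap. The highest adjusted p among the genes called with a difference of at least 1 was 0.029. Across all genes the median log2 difference was -0.04, the quartiles were -0.34 and 0.31, and the extremes were -5.83 and 5.65. As a floor, the mean plus 2 SD of 10 genes of seminal proteins, which neither line should use, was taken on each array, and is called the control threshold. In both lines 8429 genes (48.8%) lay above it, 1248 lay above it in BV2 only and 1688 in N18 only. Per array, 9678.5 ± 959.2 genes (SD, n = 4) were above it in BV2 and 10095.8 ± 344.1 (SD, n = 4) in N18, a difference within the spread (two-sided exact permutation test, p = 0.5714). BV2 replicate 3 was low, with 8242 genes, and without it the difference was -61.6. Of the genes higher by at least 1, 723 of those higher in N18 did not exceed the threshold in BV2, and 421 of those higher in BV2 did not exceed it in N18. For such genes a log2 difference holds the signal of the floor, and the fold is given as a lower bound ("at least"). RNA came from whole cultures, so fewer cells that use a gene and less RNA per cell cannot be told apart.

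The direction of small differences depended on the scale. Of the calls, 46.5% were higher in N18 after quantile normalization, against 76.3% with no normalization between arrays, 74.2% relative to the seminal proteins and 39.8% with each array centred on its median. These scales moved the median of all genes to 0.17, 0.20 and -0.15 on the log2 scale. None of the 271 genes named below with a difference of at least 1 changed direction under any alternative tried.

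**Figure D1:**
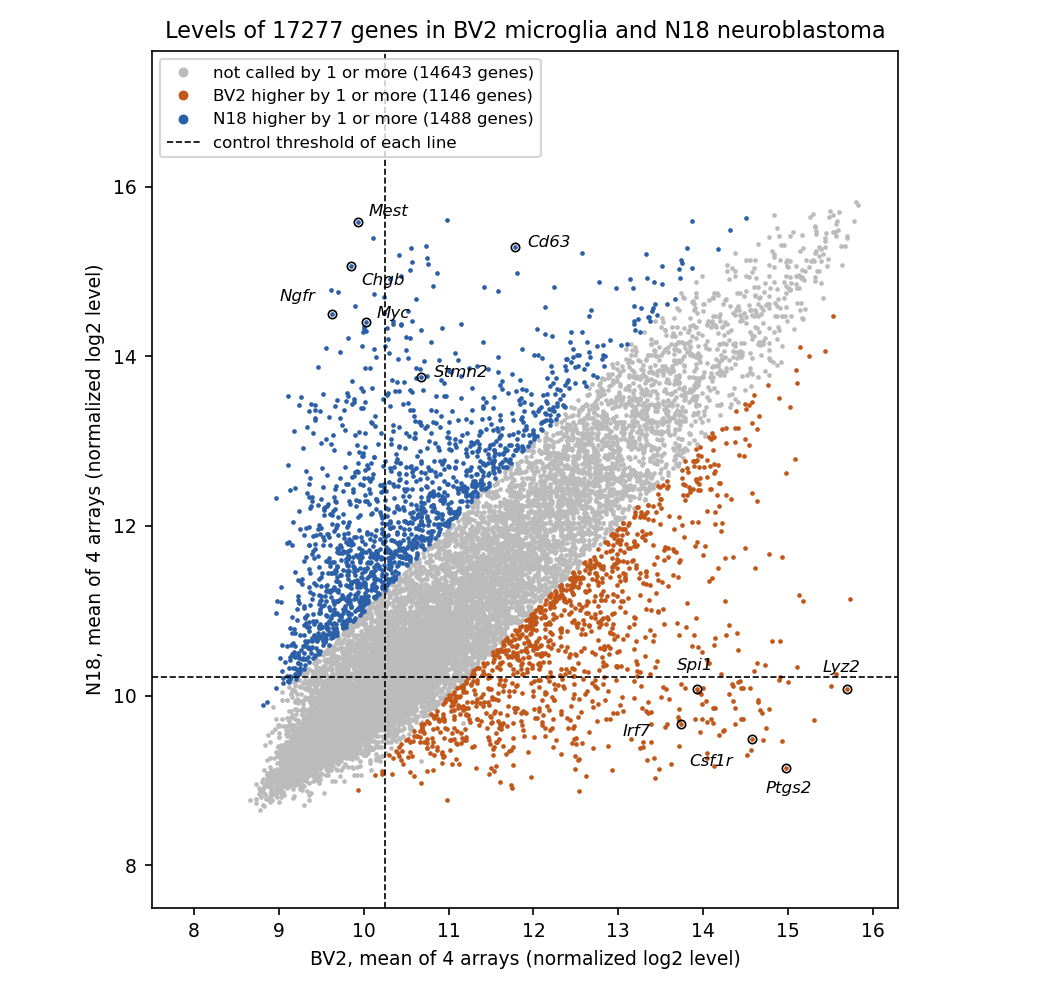
Each point is a gene, at its mean log2 level over 4 BV2 arrays (x) and 4 N18 arrays (y). Blue marks the 1488 genes higher in N18 by at least 1, orange the 1146 higher in BV2, and the dashed lines the control thresholds of 10.25 (BV2) and 10.22 (N18). By their deposited levels, 723 of the blue genes did not exceed the threshold in BV2, and 421 of the orange genes did not exceed it in N18. The lines are drawn on normalized values, so a gene near a line can lie on its other side.

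The 4 genes taken as markers of the lines differed with each line higher for its own, while other genes known from these cell types, among them Aif1, Cx3cr1, Irf8, Th, Ddc and Dcx, were not called higher in the line of that type, as described with their groups. Csf1r, the receptor of the microglial growth factor, had log2 levels of 14.67, 14.60, 14.52 and 14.49 on the BV2 arrays and 9.61, 9.50, 9.33 and 9.54 on the N18 arrays. Adgre1, an adhesion receptor that marks macrophages, had log2 levels of 14.20, 14.11, 14.16 and 14.05 on the BV2 arrays and 9.13, 9.23, 9.14 and 9.20 on the N18 arrays. The arrays of the lines did not overlap for either gene, which were at least 15.5-fold and at least 11.4-fold higher in BV2. Stmn2, a stathmin of growing neurons, had log2 levels of 10.57, 10.73, 10.85 and 10.57 on the BV2 arrays and 13.72, 13.79, 13.80 and 13.74 on the N18 arrays, a log2 difference of 3.08 ± 0.09 (SE) with N18 higher. F2r, a thrombin receptor that many cell types carry and that was taken here as a marker of N18, had log2 levels of 10.25, 10.13, 10.48 and 10.22 on the BV2 arrays and 14.29, 14.37, 14.33 and 14.35 on the N18 arrays and was at least 16.5-fold higher in N18.

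The genes with the largest differences belonged to a few kinds. Highest in N18 relative to BV2 was Mest, an imprinted gene of fetal tissue, with log2 levels of 9.92, 9.95, 9.98 and 9.88 on the BV2 arrays and 15.57, 15.49, 15.60 and 15.67 on the N18 arrays, at least 40.3-fold. The next were Fscn1, which bundles actin in growth cones (5.29 on the log2 scale), Chgb, a chromogranin of dense-core granules (5.22), Dpysl3, a collapsin response protein (5.17), and Akap12, a scaffold of protein kinase A (5.06). Crmp1 (4.76), Uchl1 (4.73) and Map1b (4.63), proteins of neuronal cytoplasm and microtubules, and Enc1 (4.56), an actin-binding protein of nerve cells, followed on the same scale. Ngfr, the low-affinity neurotrophin receptor (4.88), the matrix proteins Npnt (4.69) and Fbln2 (4.61) and the surface antigen Cd24a (4.61) were also among the 15. The remaining ones were Laptm4b of lysosomal membranes (4.54) and Cavin2 of caveolae (4.54). Like Mest, Fscn1, Chgb, Dpysl3, Akap12, Ngfr, Npnt, Cd24a and Cavin2 did not exceed the threshold in BV2, so their places rest on the floor. The lower bounds of Dpysl3 (4.53) and Akap12 (4.51) on the log2 scale lay below the differences of Crmp1, Uchl1 and Map1b.

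The largest log2 difference with BV2 higher was that of Ptgs2, the inducible cyclooxygenase of prostaglandin synthesis, with log2 levels of 14.90, 15.02, 15.09 and 14.91 on the BV2 arrays and 9.16, 9.08, 9.12 and 9.23 on the N18 arrays, at least 20.7-fold. It was above the threshold on no N18 array, so its place in the order rests on the floor, and by the lower bounds Lyz2, Lcp1 and Cd14 (at least 27.6-fold) came before it. Lyz2, the lysozyme of macrophages, had log2 levels of 15.65, 15.72, 15.69 and 15.74 on the BV2 arrays and 10.12, 10.05, 10.17 and 9.98 on the N18 arrays and was at least 37.4-fold higher. The log2 difference was 5.60 for Cd14, the co-receptor for lipopolysaccharide, 5.40 for Lcp1, the plastin of blood cells, and 5.32 for Ly6e, an interferon-responsive surface protein. Fyb (5.22), Stap1 (5.11) and Cd53 (4.89) serve signaling at the membrane of blood cells. Srgn (5.20) is the proteoglycan of their granules, and Fabp4 (5.24) binds fatty acids in fat cells and macrophages. Fyb, Stap1, Cd53, Srgn and Fabp4 did not exceed the threshold in N18, so their places rest on the floor as well. Alcam, an adhesion protein of activated leukocytes and of neurons, had log2 levels of 14.97, 14.92, 14.86 and 14.99 on the BV2 arrays and 9.51, 9.46, 9.47 and 9.46 on the N18 arrays and was at least 20.0-fold higher in BV2.

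By groups of genes the lines parted in programs of blood cells and of neurons. Each list below was written from gene nomenclature and textbook roles, with earlier results of these data known. Its count is to be read against 8.61% (N18) and 6.63% (BV2) of all genes. On the scales above, and with the probes normalized before averaging, the median changed sign for growth control, genes of all cells, iron and heme, axon guidance, matrix, ion channels, Hox genes, transmitters and energy metabolism, whose medians lay between -0.15 and 0.11, and kept its sign for the other lists whose median is given.

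**Figure D2:**
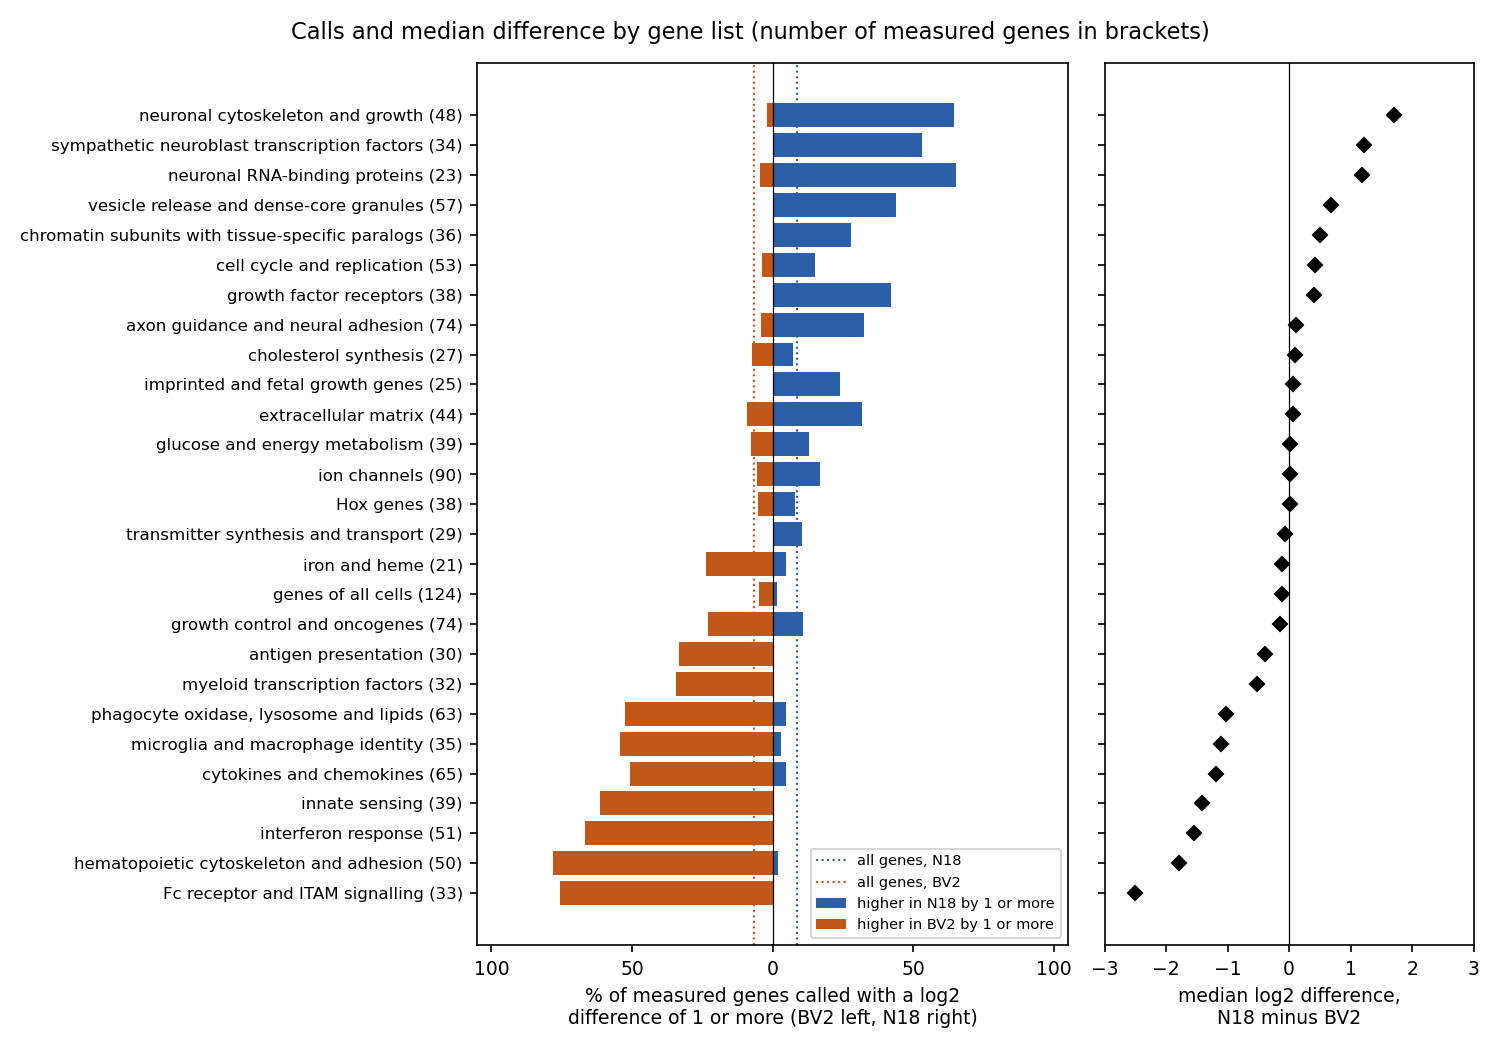
Left, the percentage of each list's measured genes that were called with a log2 difference of at least 1, with BV2 to the left, N18 to the right and dotted lines at the percentages over all genes; right, the list's median log2 difference. Those furthest from 0, which kept their sign on every scale tried, run from -2.50 for Fc receptor and ITAM signaling to 1.71 for the neuronal cytoskeleton.

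Among factors of the myeloid lineage, of 32 measured genes, 11 were higher in BV2 and 0 in N18 by at least 1, and the median log2 difference was -0.52. Spi1, which encodes PU.1, had log2 levels of 13.95, 14.11, 13.90 and 13.76 on the BV2 arrays and 10.04, 10.00, 10.10 and 10.16 on the N18 arrays, at least 9.9-fold higher in BV2. Fli1, an ETS factor of blood cells (2.37 ± 0.09 (SE) on the log2 scale), Lyl1, a helix-loop-helix factor of blood progenitors (1.94 ± 0.09), and Irf5, an interferon regulatory factor (1.89 ± 0.10), were also higher in BV2. So were the C/EBP factors Cebpa (1.69), Cebpd (1.54), Cebpe (1.36) and Cebpb (1.31), and Ikzf1 (1.48) and Runx1 (1.31). Irf8, a partner of PU.1 in microglia, did not pass the test, with log2 levels of 10.89, 11.03, 10.58 and 10.99 on the BV2 arrays and 10.83, 10.62, 10.71 and 10.92 on the N18 arrays, which overlap. The largest difference against the list was that of Gfi1, a repressor in granulocyte development, 0.97 ± 0.09 (SE) on the log2 scale with N18 higher.

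Among factors of sympathetic neuroblasts, of 34 measured genes, 0 were higher in BV2 and 18 in N18 by at least 1, and the median log2 difference was 1.21. Hand2 had log2 levels of 10.38, 10.38, 10.24 and 10.26 on the BV2 arrays and 13.56, 13.35, 13.27 and 13.48 on the N18 arrays, and Isl1 of 9.34, 9.39, 9.43 and 9.40 on the BV2 arrays and 12.30, 12.28, 12.42 and 12.21 on the N18 arrays. Neither factor overlapped between the lines. Sox4, a SOX factor of immature neurons, had a log2 difference of 3.57 ± 0.09 (SE) and was at least 9.3-fold higher in N18. Insm1 (2.47) and Myt1l (2.20), zinc-finger factors of neuroendocrine cells and neurons, and Gata2 (2.35) and Meis2 (2.11) were higher in N18 on the log2 scale as well. Gata3 differed by 1.20 ± 0.08 (SE) with only 1 of its 3 probes above the threshold. Tfap2b, a factor of the neural crest, did not pass the test (-0.20). Rest, the repressor of neuronal genes, was above the threshold in both lines and 0.73 ± 0.10 (SE) higher in BV2 on the log2 scale.

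**Figure D3:**
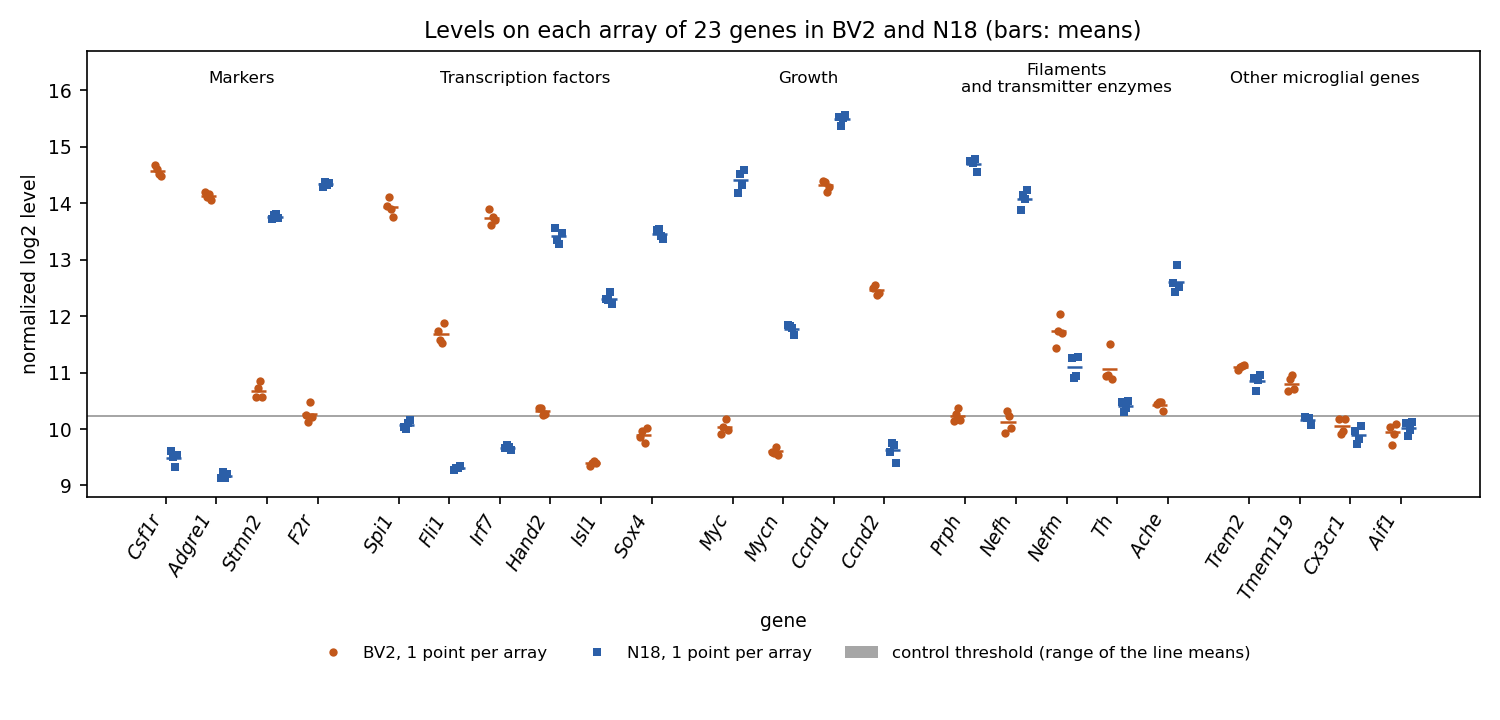
Normalized log2 levels of 23 genes on each of the 8 arrays (orange circles BV2, blue squares N18, short bars the mean of 4 arrays); the grey line marks the control threshold, about 10.25 in BV2 and 10.22 in N18. The lines lie far apart for the marker and factor genes, while Trem2, Tmem119, Cx3cr1, Aif1, Nefm and Th differ by less than 1.

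Promoter sequence was looked at for letters that factors of these programs are known to bind. RefSeq promoters of the build GRCm38.p6, each 300 bases from 250 before to 50 after a start, were matched to 13821 of the 17277 genes, 17114 promoters in all, and alternative starts of a gene can overlap. Both strands were searched for GAGGAAGT, which PU.1 binds, for GAAANNGAA, as in the elements that interferon-induced factors bind, for CAGCTG, an E-box of neural helix-loop-helix factors, and for TATAAA.

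GAGGAAGT was in 2.8% of all promoters, in 9.3% of the 334 promoters of genes higher in BV2 by at least 2 and in 2.0% of the 405 promoters of genes higher in N18 by at least 2. GAAANNGAA was in 8.1% of all promoters, 17.7% of the BV2 promoters and 7.9% of the N18 promoters, and CAGCTG in 15.9%, 17.4% and 24.2%. TATAAA was in 12%, 13.2% and 8.6%. The median number of CG pairs was 15 over all promoters, 7 in the BV2 promoters and 18 in the N18 promoters. A match is a description of the letters and not a site that was shown to be bound.

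**Figure D4:**
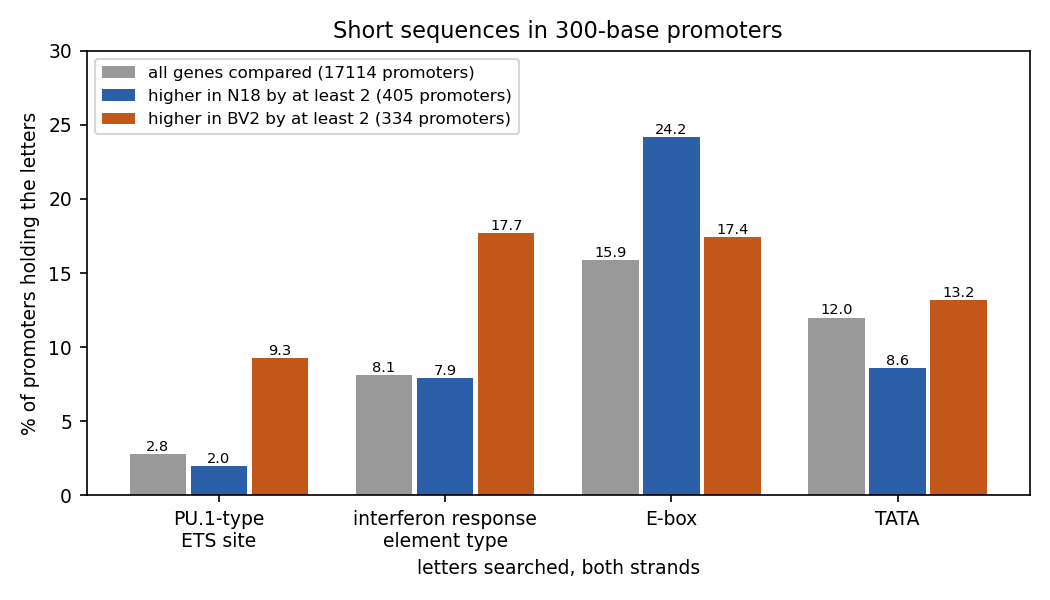
Percentage of RefSeq promoters that hold each motif, for all genes compared (grey), genes higher in BV2 by at least 2 (orange) and genes higher in N18 by at least 2 (blue). The BV2 bars exceed the others for GAGGAAGT (9.3%) and GAAANNGAA (17.7%), and the N18 bar for CAGCTG (24.2%).

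These windows show, 5′ to 3′ on the strand of the gene, where the letters lie before the start in 3 genes for each motif. Chosen were the largest differences among genes above the threshold on all 4 arrays of the higher line, with at least 2 probes. Some receptor genes and all promoters on a chromosome set aside were left out first, so genes with larger differences can be missing. Capitals mark the match on either strand. For GAGGAAGT the genes shown are Vav1, an activator of Rac, Cd72, a lectin of B cells and macrophages, and Fcgr4, an Fc receptor.
Vav1, chr17:57279049-57279099, plus strand: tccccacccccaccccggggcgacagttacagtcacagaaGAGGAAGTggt
Cd72, chr4:43454628-43454715, minus strand: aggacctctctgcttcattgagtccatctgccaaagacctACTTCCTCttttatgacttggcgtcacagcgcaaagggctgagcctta
Fcgr4, chr1:171018862-171018925, plus strand: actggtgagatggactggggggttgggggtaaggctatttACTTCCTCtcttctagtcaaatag

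For GAAANNGAA they are Fyb, an adaptor of blood cells, Srgn, the granule proteoglycan, and Ifit1, an interferon-induced gene with 3 matches.
Fyb, chr15:6579603-6579691, plus strand: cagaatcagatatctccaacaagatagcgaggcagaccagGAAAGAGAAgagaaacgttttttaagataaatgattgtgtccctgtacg
Srgn, chr10:62507929-62508007, minus strand: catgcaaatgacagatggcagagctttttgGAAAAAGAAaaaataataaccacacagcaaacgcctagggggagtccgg
Ifit1, chr19:34640740-34640853, plus strand: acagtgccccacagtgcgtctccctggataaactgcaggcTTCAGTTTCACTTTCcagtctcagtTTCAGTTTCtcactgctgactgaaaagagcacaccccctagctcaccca

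For CAGCTG they are Mest, Ngfr and Tspan7, a tetraspanin of neurons.
Mest, chr6:30733331-30733416, plus strand: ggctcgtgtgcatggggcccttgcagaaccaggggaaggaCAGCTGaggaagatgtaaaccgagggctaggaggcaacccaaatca
Ngfr, chr11:95587699-95587763, minus strand: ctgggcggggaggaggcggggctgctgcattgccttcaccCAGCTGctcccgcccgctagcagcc
Tspan7, chrX:10484874-10484959, plus strand: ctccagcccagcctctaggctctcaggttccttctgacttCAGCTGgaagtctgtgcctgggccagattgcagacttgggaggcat

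Of these genes, Cd72 was 4.01 ± 0.09 (SE) higher in BV2 and Tspan7 4.50 ± 0.08 higher in N18 on the log2 scale, and the other 7 are described with their groups.

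Of genes that define microglia and macrophages, some set BV2 far apart and others did not. On the list, of 35 measured genes, 19 were higher in BV2 and 1 in N18 by at least 1, with a median log2 difference of -1.11. Ptprc, the CD45 phosphatase of all white blood cells, was at least 8.6-fold higher in BV2, and Laptm5, a lysosomal protein of blood cells, at least 10.1-fold. Itgam, the CD11b integrin (3.95 ± 0.08 (SE) on the log2 scale), Lgals3, a galectin of activated macrophages (4.64 ± 0.08), Tyrobp (3.46 ± 0.10) and the scavenger receptor Msr1 (3.20 ± 0.09) were higher in BV2 as well. The genes that mark resting microglia in brain tissue were weak. Tmem119 had log2 levels of 10.67, 10.88, 10.96 and 10.71 on the BV2 arrays and 10.21, 10.19, 10.19 and 10.07 on the N18 arrays, with 1 of its 3 probes above the threshold. Cx3cr1, the fractalkine receptor, had log2 levels of 10.18, 9.92, 9.96 and 10.17 on the BV2 arrays and 9.97, 9.74, 9.83 and 10.06 on the N18 arrays and did not pass the test. P2ry12, the ADP receptor of microglial processes, was called (0.56 higher in BV2) but exceeded the threshold on 1 BV2 array. Aif1, the IBA1 protein used to stain microglia, had log2 levels of 10.04, 9.72, 9.91 and 10.09 on the BV2 arrays and 10.10, 9.87, 9.98 and 10.13 on the N18 arrays, with the lines overlapping and none of the 8 arrays above the threshold. The complement genes C1qa, C1qb and C1qc differed by -0.23, 0.14 and -0.05, of which only the first was called, and Trem2, a lipid receptor, was 0.24 ± 0.09 (SE) higher in BV2, a direction that turned with no normalization and relative to the seminal proteins.

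Sensors of microbial products were mostly higher in BV2. Of 39 genes, 24 were higher in BV2 by at least 1 and 0 in N18, with a median log2 difference of -1.41. Cd14 had log2 levels of 15.25, 15.33, 15.36 and 15.30 on the BV2 arrays and 9.57, 9.67, 9.82 and 9.77 on the N18 arrays. Among Toll-like receptors, Tlr7 for single-stranded RNA (2.63 ± 0.13 (SE) on the log2 scale), Tlr2 for bacterial lipoproteins (2.24 ± 0.09) and Tlr13 for bacterial ribosomal RNA (1.99 ± 0.09) led, and Tlr4, the receptor for lipopolysaccharide, was 1.09 ± 0.10 higher. Tlr1 did not pass the test (0.01), and Tlr12, a receptor for profilin of parasites, was 0.75 ± 0.08 higher in N18. Unc93b1, which carries the endosomal receptors to their place (3.46 ± 0.09), the adaptor Myd88 (2.75 ± 0.08) and the kinase-like inhibitor Irak3 (2.71 ± 0.10) were all higher in BV2 on the log2 scale. Of cytosolic sensors, Casp4 and Casp1, the inflammatory caspases, were higher in BV2 by 3.01 and 2.92, Ddx58, the RIG-I sensor of viral RNA, by 2.85, and Nlrp3, which forms an inflammasome, by 2.47 on the log2 scale. Pycard, the adaptor between Nlrp3 and Casp1, was below the threshold on all 8 arrays and 0.48 higher in BV2.

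The list with the largest median difference was that of Fc receptors and ITAM signaling, for which of 33 measured genes, 25 were higher in BV2 and 0 in N18 by at least 1, with a median log2 difference of -2.50. All 12 receptors and adaptors and all 15 kinases and effectors were called higher in BV2, against 35.1% of all genes. Fcgr4, Fcgr2b, Fcgr1 and Fcgr3, receptors for the constant part of antibodies, were higher by 3.90, 3.42, 2.52 and 2.35 on the log2 scale. The ITAM adaptor Fcer1g was higher by 3.47. The inhibitory receptors Sirpa, which reads CD47, and Lilrb4a had log2 differences of 4.26 ± 0.09 (SE) and 4.25 ± 0.09. Syk, the kinase that binds phosphorylated ITAMs, had log2 levels of 14.08, 13.89, 14.00 and 14.17 on the BV2 arrays and 10.47, 10.35, 10.37 and 10.51 on the N18 arrays. Vav1, which activates Rac (4.25 ± 0.09), Pik3ap1, an adaptor of PI3-kinase (4.41 ± 0.09), and Btk, a kinase downstream of Syk (3.32 ± 0.09), were higher in BV2 on the log2 scale. Lyn, a Src-family kinase, was called higher in BV2 by 0.59 on the log2 scale without an array above the threshold. Among phosphatases, Ptpn6 (SHP-1) was higher in BV2 by 3.55 ± 0.09 (SE) on the log2 scale and Inpp5d (SHIP1) by 1.93 ± 0.11, while Ptpre and Ptpn18 did not pass the test (-0.08 and -0.17).

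Genes that interferon induces were higher in BV2, in cultures that had received no treatment. On the list, of 51 measured genes, 34 were higher in BV2 and 0 in N18 by at least 1, and the median log2 difference was -1.55. Ifit1, which binds foreign RNA caps, had log2 levels of 14.69, 14.57, 14.63 and 14.78 on the BV2 arrays and 9.75, 9.89, 9.91 and 9.76 on the N18 arrays, at least 16.6-fold higher in BV2. Rsad2 (viperin) was higher by 4.65 ± 0.10 (SE) on the log2 scale, Ifit3 by 4.35 ± 0.09 and Oasl1, of the oligoadenylate synthetase family, by 4.27 ± 0.08. Isg15, a ubiquitin-like protein, differed by 3.00 ± 0.10 and Usp18, which removes it, by 3.66 ± 0.09, both with BV2 higher on the log2 scale. Irf7, the factor that amplifies type I interferon, had log2 levels of 13.89, 13.61, 13.75 and 13.70 on the BV2 arrays and 9.67, 9.72, 9.68 and 9.62 on the N18 arrays, at least 8.7-fold higher in BV2. Irf9 and Stat2, parts of the factor that interferon receptors activate, were higher in BV2 by 2.35 and 1.03 on the log2 scale, but Stat2 lost its call with no normalization (adjusted p = 0.057) and relative to the seminal proteins (adjusted p = 0.138). The receptor chain Ifnar2 was higher in BV2 by 1.90 ± 0.10 (SE), whereas Ifnar1 was not called (-0.11) and Ifngr1 was 0.32 ± 0.11 higher in N18 with overlapping arrays. Not every gene of the list moved: Zbp1 was not called (-0.12), Iigp1 was below the threshold on all arrays and 0.22 higher in BV2, and Trim21 was 0.27 higher in N18.

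Genes of antigen presentation were split. Of 18 genes of the class I path, 6 were higher in BV2 by at least 1. H2-T23, a nonclassical class I molecule, was higher by 3.84 ± 0.09 (SE) on the log2 scale, the peptide transporter Tap1 by 2.09 ± 0.08 and the light chain B2m by 1.85 ± 0.10. The classical H2-K1 was not called (-0.45) and H2-D1 was 0.35 ± 0.15 higher in N18, with overlapping arrays for both. In the class II path, Cd74, the invariant chain, had log2 levels of 14.24, 13.99, 13.99 and 14.30 on the BV2 arrays and 10.44, 10.58, 10.73 and 10.65 on the N18 arrays, with all BV2 arrays higher. Ctss, the cathepsin that trims it, was at least 7.0-fold higher in BV2, and the costimulatory Cd86 at least 3.6-fold. The class II chains themselves were close to the floor: H2-Aa and H2-Eb1 were below the threshold on all 8 arrays (log2 differences of -0.20 and -0.07), and Ciita, their activator, was not called (-0.21).

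The phagocyte oxidase, which makes superoxide, differed in every measured subunit: all 6 genes were higher in BV2 by at least 1. Its membrane part Cybb was higher by 4.34 ± 0.09 (SE) on the log2 scale and Cyba by 3.43 ± 0.10, and its cytosolic part Ncf1 by 3.37 ± 0.09. Of 12 cathepsins and related proteases, 11 were called higher in BV2 (35.1% over all genes), 7 of them by at least 1, such as Ctsl (1.83) and Ctsb (1.81). Other lysosomal genes went both ways. Slc15a3, a peptide transporter (4.74 ± 0.11), Slc11a1, a metal transporter of phagosomes (3.02 ± 0.10), and Ppt1, a thioesterase (2.72 ± 0.08), were higher in BV2 on the log2 scale. Cd63, a tetraspanin of late endosomes, had log2 levels of 11.66, 11.73, 12.15 and 11.58 on the BV2 arrays and 15.27, 15.28, 15.35 and 15.28 on the N18 arrays, all N18 arrays higher, and Scarb2, which carries glucocerebrosidase to lysosomes, was 1.93 ± 0.11 higher in N18.

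In lipid handling, 11 of 18 genes were higher in BV2 by at least 1 and 0 in N18. Next to Ptgs2 and Fabp4 these included Alox5ap, needed for leukotriene synthesis (3.11 ± 0.10 (SE) on the log2 scale), Abcg1, which exports cholesterol (2.64 ± 0.14), and Soat1, which esterifies it (1.96 ± 0.12). The constitutive cyclooxygenase Ptgs1 ran opposite to Ptgs2, with log2 levels of 13.20, 13.25, 13.18 and 13.02 on the BV2 arrays and 13.98, 13.81, 13.95 and 13.61 on the N18 arrays, all N18 arrays higher.

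Cytokines and chemokines were mostly higher in BV2. Of 19 chemokine ligands, 10 were higher in BV2 by at least 1 and 1 in N18. Cxcl2, which attracts neutrophils, had log2 levels of 14.42, 14.20, 14.53 and 14.39 on the BV2 arrays and 9.58, 9.71, 9.62 and 9.75 on the N18 arrays, at least 13.7-fold higher in BV2. Ccl3 and Ccl7, which attract monocytes, were higher by 4.68 and 4.66 on the log2 scale, and Cxcl10, an interferon-induced ligand, by 4.28. Cxcl1 was the exception, 1.16 ± 0.08 (SE) higher in N18 and above the threshold on 3 N18 arrays and no BV2 array. Of 25 cytokines, 13 were higher in BV2 by at least 1. The interleukin-1 antagonist Il1rn led (4.71 ± 0.08), before Il1a (3.16 ± 0.11) and Il1b (2.83 ± 0.09), and Tnf had log2 levels of 11.82, 11.90, 11.81 and 11.59 on the BV2 arrays and 9.81, 9.85, 9.80 and 9.79 on the N18 arrays. The anti-inflammatory Tgfb1 (2.09 ± 0.10) was higher in BV2 as well. Vegfa, the endothelial growth factor, was 1.44 ± 0.10 higher in N18 on the log2 scale, and Tgfb2 was 0.92 ± 0.08 higher. Among receptors, Il2rg, the common gamma chain, differed by 4.71 ± 0.09 and Tnfrsf1b, a TNF receptor, by 2.34 ± 0.09, both with BV2 higher. The TGF-beta receptors were split, since Tgfbr2 was 1.92 ± 0.08 higher in BV2 and Tgfbr1 1.42 ± 0.14 higher in N18.

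The cytoskeleton separated the lines in both directions. Of 50 genes of the blood-cell cytoskeleton and its adhesion receptors, 39 were higher in BV2 by at least 1 and 1 in N18, with a median log2 difference of -1.79. Lcp1, the plastin that bundles actin in white blood cells, had log2 levels of 15.57, 15.53, 15.48 and 15.46 on the BV2 arrays and 10.02, 10.12, 10.11 and 10.20 on the N18 arrays, at least 31.8-fold higher in BV2. Coro1a, a coronin (4.36 ± 0.09 (SE) on the log2 scale), Hcls1, a cortactin-like protein (4.38 ± 0.09), Arhgdib, which holds Rac proteins in their GDP form (4.17 ± 0.09), and Dock2, an exchange factor for Rac (3.23 ± 0.10), were higher in BV2. Tagln2, a transgelin, was 1.17 ± 0.08 higher in N18. The beta-2 integrin Itgb2 was at least 15.3-fold higher in BV2, Itgb7 differed by 4.20 ± 0.11 and Itgal by 3.69 ± 0.10. Only Cd9, a tetraspanin, was called higher in N18 among the 18 adhesion genes (0.57 ± 0.06), against 30.5% of all genes.

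Of 48 genes of the neuronal cytoskeleton and growth cone, 31 were higher in N18 by at least 1 and 1 in BV2, with a median log2 difference of 1.71. Gap43, the growth-cone protein, was at least 17.0-fold higher in N18, Marcks, which crosslinks actin at the membrane, at least 9.7-fold, and Mapt (tau) at least 6.6-fold. The motor subunits Kif5c (3.58 ± 0.09 (SE) on the log2 scale) and Kif5a (3.01 ± 0.09) and the tubulins Tubb3 (3.25 ± 0.08) and Tubb2a (3.27 ± 0.09) were higher in N18, while the tubulin Tuba4a was 1.59 ± 0.10 higher in BV2. The intermediate filaments did not move together. Prph, the filament of peripheral neurons, had log2 levels of 10.14, 10.27, 10.37 and 10.16 on the BV2 arrays and 14.74, 14.71, 14.78 and 14.56 on the N18 arrays, at least 21.5-fold higher in N18. Nefh, the heavy neurofilament, was 3.96 ± 0.11 higher in N18 and Ina (internexin) 3.35 ± 0.12. The medium chain Nefm, by contrast, had log2 levels of 11.43, 11.74, 12.04 and 11.70 on the BV2 arrays and 11.26, 10.90, 10.94 and 11.27 on the N18 arrays, with BV2 higher and all arrays above the threshold, and the light chain Nefl was below the threshold in both lines (-0.42). Dcx, a microtubule protein of migrating neurons, was below the threshold on all 8 arrays and did not pass the test (-0.05).

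In several families the members differed in opposite directions, in most of them with members above the threshold in both lines. The WASP proteins, which start actin branching, were split between Was, higher in BV2 by 3.29 ± 0.08 (SE) on the log2 scale, and Wasf1 and Wasl, higher in N18 by 3.38 ± 0.11 and 2.66 ± 0.09. Nckap1l and Nckap1 belong to the complex that holds Wasf1. Nckap1l had log2 levels of 12.89, 12.46, 12.82 and 12.91 on the BV2 arrays and 10.90, 10.69, 10.87 and 10.78 on the N18 arrays, and Nckap1 of 9.30, 9.24, 9.25 and 9.19 on the BV2 arrays and 13.35, 13.48, 13.38 and 13.49 on the N18 arrays. Neither gene overlapped between the lines, and each was higher in the other line. The pairs Vav1 (4.25, BV2) and Vav2 (0.86, N18), Rac2 (1.54, BV2) and Rac1 (0.93, N18), Arhgdib (4.17, BV2) and Arhgdig (0.84, N18), and Cfl1 (1.55, BV2) and Dstn (1.09, N18) were opposed in the same way on the log2 scale. Pfn2, the neuronal profilin, was 2.72 ± 0.10 higher in N18. Among coronins Coro1a and Coro1b (1.96) were higher in BV2 and Coro2b (2.79) in N18. Among catalytic subunits of PI3-kinase Pik3cg (2.50), Pik3cb (1.47) and Pik3cd (1.29) were higher in BV2 and Pik3ca (0.69) in N18. Among beta tubulins, in turn, none was higher in BV2 by at least 1, and the plastins besides Lcp1, Pls3 and Pls1, were below the threshold in both lines. Of 21 families, 15 had a member called higher in each line, 12 of them on every scale tried. In 6 families a member was higher by at least 1 in each line. Of all genes, 30.5% were called higher in N18 and 35.1% in BV2. These are shares of genes and not of families, and a family with more members meets both calls more easily. The number of families that unrelated genes would give was not computed.

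**Figure D5:**
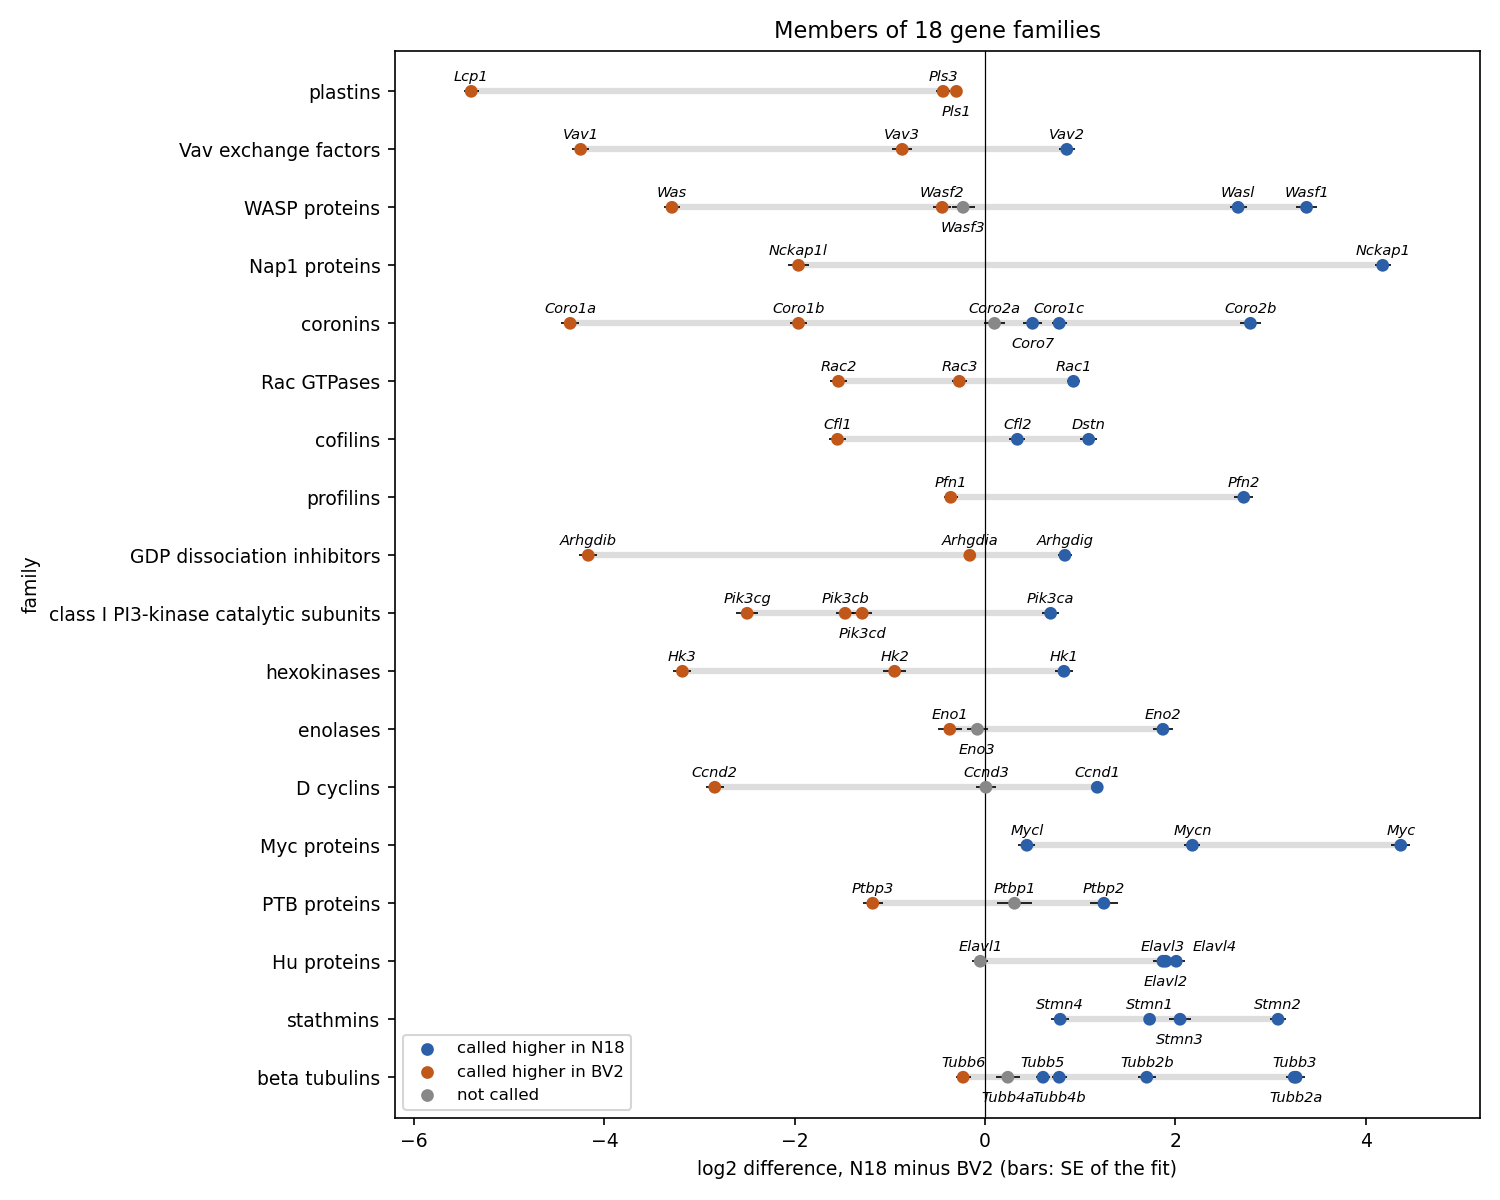
Log2 difference, N18 minus BV2, of each measured member of 18 gene families, with the SE of the fit as a bar; points right of 0 are higher in N18, and grey points did not pass the test. Of the 71 members of all 21 families, 9 changed side with the scale, all within 0.45 of 0 here.

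RNA-binding proteins of neurons were mostly higher in N18: of 23 measured genes, 1 was higher in BV2 and 15 in N18 by at least 1, with a median log2 difference of 1.18. The neuronal Hu proteins Elavl4, Elavl2 and Elavl3 were higher by 2.01, 1.90 and 1.87 on the log2 scale, whereas Elavl1, the member of all cells, was not called (-0.05). Ptbp2, the neural splicing regulator, was 1.25 ± 0.15 (SE) higher in N18 and Ptbp3, its relative in blood cells, 1.18 ± 0.10 higher in BV2, while Ptbp1 was not called (0.31). Rbfox2, a splicing factor (2.08 ± 0.08), Msi2 (1.44 ± 0.11) and the fetal Lin28b (1.42 ± 0.11) were higher in N18. Igf2bp2, a fetal mRNA-binding protein, was the exception, with log2 levels of 13.36, 13.36, 13.25 and 13.26 on the BV2 arrays and 10.43, 10.43, 10.51 and 10.49 on the N18 arrays, all BV2 arrays higher.

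Genes of secretory vesicles and dense-core granules were higher in N18 more often than in BV2. Of 57 measured genes, 33 were called higher in N18 and 12 in BV2, against 30.5% and 35.1% of all genes. By at least 1, 25 were higher in N18 and 0 in BV2, and the median log2 difference was 0.68. Chgb, a granin that fills catecholamine granules, had log2 levels of 9.77, 9.92, 9.90 and 9.80 on the BV2 arrays and 15.03, 15.21, 15.12 and 14.90 on the N18 arrays, at least 28.1-fold higher in N18. Scg3, Scg2 and Chga, other granins, were higher by 4.01 ± 0.10 (SE), 3.82 ± 0.10 and 2.31 ± 0.10 on the log2 scale, and Cpe, which trims prohormones, by 3.12 ± 0.09. The prohormone convertases Pcsk1 and Pcsk2, in turn, were below the threshold on all 8 arrays and not called (-0.07 and -0.10). Npy, a peptide of sympathetic neurons, was 2.05 ± 0.11 higher in N18, and Gal (galanin) was 0.91 ± 0.09 higher in BV2. Syn2, a synapsin, was at least 16.8-fold higher in N18 and Syp (synaptophysin) differed by 3.40 ± 0.08. The calcium sensor Syt1 (2.71 ± 0.10), Rab3c (2.81 ± 0.10), Cplx1 (2.69 ± 0.09) and Rims2 (2.56 ± 0.09), all of vesicle fusion, were higher in N18 on the log2 scale. Snap25, the SNARE of neuronal plasma membranes, was called (0.51 higher in N18) with no array above the threshold, and the median of its probes turned the other way. Rph3a, which binds Rab3 on vesicles, was 0.77 ± 0.15 higher in BV2.

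The enzymes and carriers of transmitters differed less: of 29 measured genes, 0 were higher in BV2 and 3 in N18 by at least 1, with a median log2 difference of -0.06. Th, the rate-limiting enzyme of catecholamine synthesis, had log2 levels of 10.94, 10.95, 11.51 and 10.88 on the BV2 arrays and 10.48, 10.30, 10.37 and 10.50 on the N18 arrays, so that all BV2 arrays lay above all N18 arrays (0.66 ± 0.12 (SE), adjusted p = 0.000194). Ddc, the next enzyme, was below the threshold on all 8 arrays and not called (0.14), and Dbh, which makes noradrenaline, was 0.43 ± 0.10 higher in N18. The noradrenaline carrier Slc6a2 and the vesicular carrier Slc18a1 were below the threshold on all arrays. Cyb561, the cytochrome of granule membranes, had the largest difference, with log2 levels of 9.77, 9.86, 9.69 and 9.73 on the BV2 arrays and 12.09, 12.13, 12.11 and 11.88 on the N18 arrays. Of cholinergic genes, Ache, which breaks acetylcholine down, was higher in N18 by 2.19 ± 0.10 on the log2 scale and Slc18a3, the vesicular acetylcholine carrier, by 1.03 ± 0.10. Chat, which makes acetylcholine, was 0.94 ± 0.13 higher in BV2, with 1 of 3 probes above the threshold.

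Of 90 ion channel genes, 15 were higher in N18 and 5 in BV2 by at least 1, and the median log2 difference was 0.02. P2rx3, an ATP-gated channel of sensory neurons, had log2 levels of 10.33, 10.08, 10.21 and 10.18 on the BV2 arrays and 13.32, 13.17, 12.81 and 13.09 on the N18 arrays, at least 7.0-fold higher in N18. P2rx7, the ATP-gated channel of macrophages, had log2 levels of 13.03, 12.98, 12.91 and 13.01 on the BV2 arrays and 10.67, 10.67, 10.77 and 10.68 on the N18 arrays, all BV2 arrays higher, and P2rx4 was 0.72 ± 0.10 (SE) higher in BV2. The sodium channel Scn8a and its subunit Scn3b were higher in N18 by 1.74 and 2.69 on the log2 scale. Among calcium channels Cacna1c, the L-type pore (1.72 ± 0.12), Cacnb3 (1.70 ± 0.09) and the T-type Cacna1h (1.17 ± 0.11) were higher in N18. The potassium channel Kcnh2 (1.66 ± 0.10), which damps firing, was higher in N18, whereas Kcnn4, the calcium-activated channel of blood cells (1.73 ± 0.11), and Kcnk13, of microglia (1.30 ± 0.08), were higher in BV2. Trpv2, a cation channel of macrophages, was 2.14 ± 0.09 higher in BV2, and Chrna3, the nicotinic subunit of autonomic ganglia, 1.48 ± 0.10 higher in N18 on the log2 scale.

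Among guidance and adhesion genes, of 74 measured genes, 3 were higher in BV2 and 24 in N18 by at least 1, with a median log2 difference of 0.11. The netrin receptors Unc5b, Unc5c and Unc5a were higher in N18 by 2.90, 2.70 and 1.94 on the log2 scale, the ephrin Efna5 by 2.82 ± 0.09 (SE) and the semaphorin Sema6d by 2.39 ± 0.09. Plxnd1, a semaphorin receptor, was 1.62 ± 0.09 higher in BV2. Of adhesion proteins, Cadm1 (3.47 ± 0.10), Nrcam (3.19 ± 0.11), Mcam (3.03 ± 0.10) and L1cam (2.82 ± 0.10) were higher in N18, against Alcam (5.46) and Nlgn3 (1.07) in BV2.

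On a list of receptor kinases and co-receptors for growth factors, which did not hold Csf1r or the TGF-beta receptors described above, 16 of 38 measured genes were higher in N18 by at least 1 and 0 in BV2. Ngfr, which binds all neurotrophins, had log2 levels of 9.70, 9.57, 9.72 and 9.51 on the BV2 arrays and 14.70, 14.46, 14.39 and 14.45 on the N18 arrays, at least 19-fold higher in N18. Ret, the receptor kinase for the GDNF family, had log2 levels of 10.34, 10.57, 10.47 and 10.40 on the BV2 arrays and 14.32, 14.48, 14.49 and 14.20 on the N18 arrays, and its co-receptor Gfra1 was 1.56 ± 0.10 (SE) higher in N18. Fgfr1 differed by 4.04 ± 0.10, the collagen receptor Ddr2 by 3.05 ± 0.09, Igf1r by 2.31 ± 0.09 and Alk, a kinase of neuroblastoma, by 1.43 ± 0.11 on the log2 scale. Ntrk3, the receptor for neurotrophin-3, was 1.84 ± 0.09 higher in N18 and Ntrk2, for BDNF, 0.48 ± 0.09 higher in BV2. The co-receptor Gfra3 was 0.87 higher in BV2 on the log2 scale, with 1 of 3 probes above the threshold.

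The extracellular matrix had more genes higher in N18 than in BV2: of 44 measured genes, 4 were higher in BV2 and 14 in N18 by at least 1, with a median log2 difference of 0.07. The laminin chain Lama4 was at least 9.0-fold higher in N18, fibronectin (Fn1) at least 8.7-fold and nidogen (Nid1) at least 7.6-fold. The basement membrane collagens Col4a2 and Col4a1 were higher by 3.38 and 2.14 on the log2 scale, and Sparc, a matrix protein that binds them, by 3.92. The fibrillar collagens Col1a2 and Col3a1 were below the threshold on all arrays and not called (-0.13 and 0.08). In BV2 the higher genes were the surface protease Adam8 (4.84 ± 0.09 (SE)), Spp1, or osteopontin (2.68 ± 0.10), the collagenase Mmp13 (2.11 ± 0.09) and the laminin chain Lamc1 (1.37 ± 0.09) on the log2 scale.

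Both lines divide in culture. Of 26 replication genes, 11 were called higher in N18 and 9 in BV2, with a median log2 difference of 0.08, which was 0.61 with no normalization between arrays (14 and 1 called) and 0.64 relative to the seminal proteins (16 and 2 called). Of 27 mitotic genes, 24 were called higher in N18 and 0 in BV2, against 30.5% and 35.1% of all genes, and 7 were higher by at least 1. Their median was 0.70, and 1.31 and 1.34 on the same alternative scales. Ccnb1, the mitotic cyclin (1.74 ± 0.08 (SE) on the log2 scale), Top2a, a topoisomerase (1.63 ± 0.09), and Foxm1, which drives mitotic genes (1.56 ± 0.09), led.

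Myc, a growth-promoting factor, had log2 levels of 9.92, 10.04, 10.17 and 9.99 on the BV2 arrays and 14.18, 14.52, 14.33 and 14.58 on the N18 arrays, at least 17.8-fold higher in N18 and below the threshold on all BV2 arrays. Mycn, the Myc gene amplified in human neuroblastoma, had log2 levels of 9.60, 9.58, 9.69 and 9.54 on the BV2 arrays and 11.84, 11.82, 11.79 and 11.67 on the N18 arrays, at least 2.8-fold higher in N18. Whether the probes of Myc read the viral gene was not tested. The D cyclins Ccnd2 and Ccnd1, which start the cycle, differed in opposite directions. Ccnd2 had log2 levels of 12.50, 12.55, 12.38 and 12.41 on the BV2 arrays and 9.60, 9.76, 9.72 and 9.40 on the N18 arrays, at least 3.5-fold higher in BV2, and Ccnd1 of 14.40, 14.38, 14.20 and 14.28 on the BV2 arrays and 15.53, 15.36, 15.50 and 15.57 on the N18 arrays, higher in N18 and far above the threshold in both lines. Their partner Cdk6 was at least 2.3-fold higher in BV2, and Cdk4 was 0.23 ± 0.07 higher in N18. Trp53 itself was not called (0.13), Cdkn1a (p21) and Mdm2, which it induces, were 1.25 ± 0.12 and 1.03 ± 0.09 higher in BV2 (Mdm2 lost its call relative to the seminal proteins), and Sesn1, another target, 2.15 ± 0.11 higher in N18.

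Of 31 genes of apoptosis, 11 were higher in BV2 and 2 in N18 by at least 1. They included both protectors and effectors of death. How far the calls leaned to BV2 depended on the scale. With differences of any size, 21 were called higher in BV2 and 7 in N18, with a median log2 difference of -0.30. With no normalization between arrays 12 and 7 were called (median -0.17), and relative to the seminal proteins 11 and 11 (median -0.14). With each array centred on its median 18 and 5 were called (median -0.49). The survival genes Bcl2a1a (3.05 ± 0.10 (SE) on the log2 scale), Birc3 (2.79 ± 0.09) and Cflar (1.94 ± 0.09) were higher in BV2, and so were Bax (1.91 ± 0.07) and Bak1 (1.89 ± 0.16), which open the mitochondrion. Bok, a relative of Bax, had log2 levels of 10.03, 9.77, 10.07 and 10.00 on the BV2 arrays and 11.82, 11.72, 11.55 and 11.46 on the N18 arrays, with all N18 arrays higher.

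Besides Mest, other imprinted genes were higher in N18. Of 25 measured, 6 with Mest were higher in N18 by at least 1 and 0 in BV2, while the median log2 difference was 0.07. Peg10, a gene derived from a retroelement, had log2 levels of 9.82, 9.57, 9.86 and 9.89 on the BV2 arrays and 13.46, 13.44, 13.43 and 13.54 on the N18 arrays, at least 9.3-fold higher in N18. Snrpn, a spliceosome protein of neurons, was 2.34 ± 0.10 (SE) higher on the log2 scale, Sgce, a sarcoglycan that neighbours Peg10, 2.13 ± 0.11, and Dlk1, a Notch-related surface protein of sympathetic and endocrine cells, 1.75 ± 0.11. Igf2, the fetal growth factor, was not called (0.02), and Cdkn1c was below the threshold on all arrays (-0.30).

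Of 38 Hox genes, which give position along the body axis, 20 did not pass the test, and the shares higher by at least 1, 7.9% in N18 and 5.3% in BV2, were near those of all genes. Those higher in N18 by at least 1 were Hoxc10, with log2 levels of 10.40, 10.52, 10.81 and 10.56 on the BV2 arrays and 12.49, 12.75, 12.61 and 12.71 on the N18 arrays, Hoxc6 (1.19 ± 0.10 (SE)) and Hoxc9 (1.11 ± 0.09). In BV2 Hoxa2 (1.17 ± 0.15) and Hoxb3 (1.02 ± 0.16) were higher by at least 1 on the log2 scale, and by less than 1 with no normalization (-0.58 and -0.45 as N18 minus BV2), relative to the seminal proteins (-0.55 and -0.42) and with arrays centred on their medians (-0.90 and -0.77). Of 36 chromatin subunits, 10 were higher in N18 by at least 1 and 0 in BV2, with a median of 0.50. Hdac2, a histone deacetylase, was 1.89 ± 0.10 higher in N18, and the Polycomb readers Cbx7, Cbx6, Cbx2 and Cbx8 by 1.87, 1.66, 1.47 and 1.29 on the log2 scale. Ezh2, the Polycomb methylase, was 1.07 ± 0.10 higher in N18, but its partner Suz12 was 0.68 ± 0.09 higher in BV2.

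Genes of energy metabolism differed in a few isoforms. Over 39 genes the median log2 difference was 0.02, with 5 higher in N18 and 3 in BV2 by at least 1. Hexokinases were above the threshold in both lines and differed in opposite directions: Hk3, the form of white blood cells, had log2 levels of 14.02, 13.80, 13.92 and 13.82 on the BV2 arrays and 10.70, 10.61, 10.61 and 10.92 on the N18 arrays, and Hk1, the form of brain, of 12.96, 12.94, 12.62 and 12.62 on the BV2 arrays and 13.55, 13.71, 13.70 and 13.52 on the N18 arrays. The lines did not overlap for either, and the directions were opposite. The glucose carrier Slc2a1 was 1.37 ± 0.13 (SE) higher in BV2 and Slc2a3, the carrier of neurons, 1.84 ± 0.11 higher in N18 on the log2 scale. Pfkm, a phosphofructokinase (2.01 ± 0.11), and Eno2, the neuronal enolase (1.87 ± 0.11), were higher in N18. In the sodium pump the beta chain Atp1b1 was 2.19 ± 0.09 higher in N18 and Atp1b3 1.38 ± 0.06 higher in BV2.

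Of 21 genes of iron and heme, 5 were higher in BV2 by at least 1 and 1 in N18, but 2 in each with no normalization and relative to the seminal proteins. Lcn2, a protein that withholds iron from bacteria, had log2 levels of 15.83, 15.67, 15.63 and 15.79 on the BV2 arrays and 11.32, 10.92, 10.86 and 11.44 on the N18 arrays, with all BV2 arrays higher. The transferrin receptor Tfrc (1.45 ± 0.10 (SE) on the log2 scale), the heme oxygenase Hmox1 (1.41 ± 0.11) and the iron carrier Slc11a2 (1.30 ± 0.09) were higher in BV2, and the heme carrier Slc48a1 (1.26 ± 0.13) in N18. Cholesterol synthesis had 2 of 27 genes higher in N18 by at least 1, 2 in BV2 and a median log2 difference of 0.09. Srebf1, a regulator of lipid synthesis (1.22 ± 0.11), was higher in N18 and Mvk, mevalonate kinase (1.73 ± 0.14), in BV2.

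The counts of genes that all cells use moved with the scale. Of 30 proteasome genes, 11 were called higher in N18 and 7 in BV2, against 30.5% and 35.1% of all genes, with 0 differing by at least 1 and a median log2 difference of 0.02. With no normalization between arrays 22 were called higher in N18 and 0 in BV2, with a median of 0.64, and relative to the seminal proteins the same numbers were called, with a median of 0.67. In the respiratory chain, 12 of 37 genes were called higher in N18 and 14 in BV2, 1 each by at least 1, with a median of 0.06. With no normalization 21 and 3 were called, with a median of 0.48. Of 44 ribosomal protein genes, 30 were called higher in BV2 and 2 in N18 with a median of -0.31, but the median turned to 0.19 with no normalization between arrays and to 0.22 relative to the seminal proteins. Rpl22, of the large subunit, had log2 levels of 11.57, 11.47, 11.47 and 11.56 on the BV2 arrays and 13.10, 13.12, 13.22 and 13.09 on the N18 arrays, all N18 arrays higher, and Rps24, of the small subunit, was 1.50 ± 0.09 (SE) higher in BV2. Gapdh and Actb, often used as references, differed by 0.17 and -0.43 on the log2 scale, and Actb turned to 0.04 with no normalization and to 0.07 relative to the seminal proteins.

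Markers of cell types that neither line should hold were taken from 9 lists, of astrocytes, oligodendrocytes, Schwann cells, fibroblasts, endothelium, lymphocytes, epithelium, erythroid cells and corticotrophs. Of 52 measured markers, 22 (42.3%) were below the threshold in both lines, against 34.2% of all genes, and 30 were above it in at least 1 line. There were 11 called higher in N18 and 19 in BV2, against 30.5% and 35.1% of all genes, and 3 and 0 of them by at least 1. Of these 3, Pdgfra (1.62 ± 0.11 (SE)), a growth factor receptor of mesenchymal cells, and Epcam (1.23 ± 0.14), an epithelial adhesion protein, were above the threshold in both lines, and the third is a receptor of corticotrophs. Among those below the threshold on all 8 arrays were Gfap of astrocytes, Mog of oligodendrocytes, Cldn5 of endothelium and Ms4a1 of B cells. The lymphocyte gene Cd3e was above it on all BV2 arrays, with 2 of 3 probes, and 0.74 higher in BV2 on the log2 scale.

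The order of levels between genes was not compared, since each probe binds with its own strength. The letters of the probes were not used, so signal shared between close copies, such as Lyz1 and Lyz2, the Bcl2a1 genes or the class I molecules, cannot be told from their own.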

How the data were processed

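Mouse NimbleGen expression arrays (60-mer probes, Cy3, 4 arrays per slide) of 4 BV2 and 4 N18 plates were compared, and 4 AtT20 arrays entered 1 alternative. RNA was extracted with TRIzol, copied from oligo(dT) and labelled with Cy3 nonamers. The deposited values are log2 intensities of 72000 probes per array, to which the authors had, as far as the values show, applied no background subtraction or normalization between arrays. Array medians of the deposited values were 9.90 to 10.28 (BV2) and 10.10 to 10.54 (N18), and the number of arrays limits the precision. Their interquartile ranges did not overlap, at 1.28 to 1.73 (BV2) and 1.91 to 2.21 (N18), and the normalization gave all arrays one distribution. On the N18 arrays 7 to 44 probes sat at the highest value of 16.0, where a level can be clipped, and on the BV2 arrays 0.

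Targets were named through their transcript accession. Of 25631 targets 17780 (69.4%) had a mouse symbol, and 7851 were left out. The linear intensities of the probes to 1 target were averaged and their log2 taken, the 433 genes with several targets got the mean of these, and the 8 arrays were quantile normalized. N18 was compared with BV2 by limma 3.58.1 in R 4.3.3 (lmFit, eBayes with trend, two-sided), with Benjamini-Hochberg adjustment over 17277 genes. Tables were made with Python 3.11.15. A gene was above the control threshold where its deposited level exceeded the mean plus 2 SD of 10 seminal proteins on the array, averaged per line for a call. Svs3b, of the same family, was above the threshold on all 8 arrays and was not one of the 10. Lower bounds of folds take, in the dimmer line, the higher of the threshold and the gene on each array, and are the smallest of 3 scalings, 2 of which were added after seeing the data. In simulated data with normal noise, 200 of 17277 genes were changed in random directions and all others were equal between the lines. Of the changed genes 77.5%, 98.5% and 100% were recovered at log2 changes of 0.5, 1 and 2. Of the calls 6.1%, 5.3% and 9.9% were false. In the data 65.6% of genes were called, a setting that was not simulated, so these shares do not carry over to the calls here.

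The genes, lists and tests were chosen with earlier results of these data known. Named were the 4 markers, for each line the 15 genes that differed most in its favour (receptor genes left out), in each role of a list up to 4 called members with the largest difference and up to 2 against the list, members of paralog families, and markers of other cell types above the threshold. Some genes that this rule names are not reported here. A few more were named after their values were seen, such as list members that did not pass the test. Alternatives were the normalization, the averaging of probes and targets, the background, the filter, all 12 arrays, the trend, a replicate block and leaving out each array.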

Additional observations from a re-analysis of the deposited data

Results flagged for a closer look

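On 1 array the level of a gene lay far from the other 3 of its line, by a gap past Dixon's critical value, in 42 of 684 groups of 4 arrays (6.1%), where chance gives about 1 in 20. The values that follow are normalized log2 levels of the array that stood apart. On BV2 replicate 1 the level was 14.66 for Stap1. On BV2 replicate 2 the level was 14.96 for Coro1a, 10.70 for Ddr2, 9.63 for Efna5, 10.75 for Epcam, 10.99 for Kcnk13, 9.82 for Lama4, 9.37 for Marcks, 13.73 for Ncf1, 9.34 for Pcsk2, 9.61 for Slc6a2 and 10.17 for Zbp1. On BV2 replicate 3 the level was 13.15 for Ctss, 14.76 for Fabp4, 13.11 for H2-T23, 12.26 for Rph3a, 12.89 for Tgfb1, 11.51 for Th, 12.53 for Tlr2 and 10.37 for Unc5b. On BV2 replicate 4 the level was 15.43 for Actb, 9.90 for Alk, 10.12 for Gal and 10.03 for Iigp1. On N18 replicate 1 the level was 9.51 for Alcam, 11.96 for Ezh2 and 11.22 for Rps24. On N18 replicate 2 the level was 9.57 for Cd86, 10.24 for Cflar, 10.17 for Itgam, 9.13 for Pcsk2, 14.02 for Sparc and 11.20 for Tgfb1. On N18 replicate 3 the level was 10.77 for P2rx7. On N18 replicate 4 the level was 11.88 for Cyb561, 10.27 for Gfra3, 11.12 for Ifnar2, 10.41 for Lyz1, 10.65 for Ptbp3, 9.49 for Slc15a3, 10.23 for Spp1 and 11.47 for Trpv2. BV2 replicate 3 also had 8242 genes above the control threshold, fewer than the other BV2 arrays.

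Outside the comparison, the targets without a gene symbol carried signal too: 3172 to 3973 of 7851 such targets were above the control threshold on the BV2 arrays and 3620 to 3878 on the N18 arrays.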

How the results depend on the processing

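The number of calls stayed within 1.5 times of 11332 under every alternative (7669 with all 12 arrays, 8432 with no normalization between arrays, 12356 with arrays centred on their medians, and 10544 to 11177 without 1 array). With targets without a symbol included it was 15233 of 25128. The calls higher in BV2 moved more, from 6065 to 1999 with no normalization, 2692 relative to the seminal proteins and 3862 with all 12 arrays. The replicate block gave 11363 calls. Arrays with the same number deviated together with correlations of -0.07, 0.16, -0.05 and 0.02, within the -0.41 to 0.29 of arrays with unlike numbers. The labels do not say that the numbers pair arrays, and a shared day or batch was not tested. Without BV2 replicate 3 the difference in genes above the control threshold per array turned from 417.2 to -61.6 (exact permutation p = 0.9143), and without the other arrays in turn it ran up to 602.1.

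A turn of direction was counted only where the gene was called after quantile normalization or under the alternative, and other changes of sign are not listed. Of the named genes, the direction turned for Actb (0.04 with no normalization, 0.07 relative to the seminal proteins). Under the same alternatives it turned for Trem2 (0.25 and 0.28) and Elavl1 (0.54 and 0.57). By this count it turned for Ifnar1 with no normalization (0.49) and for Irf8 relative to the seminal proteins (0.36). The direction also turned for Col3a1 (-0.27) with arrays centred on their medians, and for Snap25 with the median of the probes (-0.10). Col3a1, Elavl1, Ifnar1 and Irf8 had not passed the test after quantile normalization. Among the 271 named genes with a difference of at least 1, Mdm2 and Stat2 lost their call relative to the seminal proteins, and Stat2 also with no normalization. Among list counts at a difference of at least 1, growth control and oncogenes turned from 8 higher in N18 and 17 in BV2 to 15 and 11 with no normalization, genes of all cells from 2 and 6 to 17 and 1, iron and heme from 1 and 5 to 2 and 2, and cell cycle and replication from 8 and 2 to 25 and 0. The cause was not tested.

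The arrays hold 1 colour and no counts, and 4 plates per line limit the precision. Near the control threshold a level has only an upper limit. Each line is 1 culture lineage on slides that the labels do not name, so line, culture and slide cannot be told apart.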
